A study of Mus musculus with 32 samples.

Results

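The 10 transcripts described here, Ctrb1, Try4, Cpa1, Klk1, Pnlip, Clps, Cel, Amy2a5, Gp2 and Dmbt1, are made at high levels by the acinar cells of the exocrine pancreas, and they were read in libraries of cells sorted from islets. They are 10 of 22850 genes in the deposited table and were matched by gene symbol. They had been picked partly because they were lower after doxycycline (Dox), so every difference between time points below is a description of these genes and carries no p-value. The measure is an expression score normalised by the authors, in which 1 is the lowest value. The number of reads behind a score is unknown, and because the score is not stated to be adjusted for transcript length, each gene is compared with itself across libraries.

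The mice were adult βVEGF-A; MIP-GFP animals, given in the labels as MIP-GFP; RIP-rtTA; TetO-VEGF-A, and all groups carried the same 3 transgenes. RIP, the rat insulin II promoter, placed the Dox-dependent activator rtTA in β cells, TetO-VEGF-A made human VEGF-A when Dox was present, and MIP, the mouse insulin I promoter, marked β cells with GFP. Islets came from mice that received no Dox (No Dox), after 1 week of Dox in the drinking water (1wk Dox), or 1 week after Dox was withdrawn (1wk WD). GFP+ β cells (n = 4, 5 and 3 libraries in that order), CD31+ endothelial cells (ECs; n = 4, 1 and 5) and CD11b+ macrophages (MΦs; n = 4, 2 and 4) were sorted, with cells of several mice pooled, giving 32 libraries. Nothing states that libraries with the same replicate number came from the same pool of mice. Tests between libraries measure the spread between these samples.

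Acinar cells fill the exocrine pancreas around the islets and export digestive enzymes, mostly as inactive zymogens stored in granules. The enzymes fall into proteases, lipid-digesting enzymes, amylases and nucleases, and their genes are driven by a shared set of transcription factors, among them the PTF1 complex of Ptf1a, an E protein and Rbpjl. β cells, ECs and MΦs are not known for making these digestive enzymes. In bulk libraries, a different number of acinar cells, a different amount of RNA per acinar cell and transcription in the sorted cells themselves cannot be told apart.

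The 250 bases before the annotated start are shown for 3 of the genes because the PTF1 complex is known to bind an E-box next to a TC-box in acinar enzyme genes. CACCTG and CAGCTG (E-box forms) and TTTCCC (the TC-box core) were searched on both strands of the RefSeq promoters of build GRCm38.p6, which held 8 of the 10 genes. Capitals mark every match, and a match on the opposite strand reads as its reverse complement. Ctrb1 (chr8:111691011-111691260, minus strand) and Cel (chr2:28563404-28563653, minus strand) held both an E-box and TTTCCC, and Pnlip (chr19:58670115-58670364, plus strand) held neither.
Ctrb1: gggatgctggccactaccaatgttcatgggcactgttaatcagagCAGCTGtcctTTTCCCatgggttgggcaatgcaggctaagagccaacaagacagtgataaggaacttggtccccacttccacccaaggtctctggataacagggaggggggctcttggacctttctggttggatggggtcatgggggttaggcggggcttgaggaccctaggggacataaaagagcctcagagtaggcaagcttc
Cel: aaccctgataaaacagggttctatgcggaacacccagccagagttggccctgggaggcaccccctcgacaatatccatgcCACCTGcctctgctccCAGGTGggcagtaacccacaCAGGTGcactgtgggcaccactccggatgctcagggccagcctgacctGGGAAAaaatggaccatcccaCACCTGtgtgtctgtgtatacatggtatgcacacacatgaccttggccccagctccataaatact
Pnlip: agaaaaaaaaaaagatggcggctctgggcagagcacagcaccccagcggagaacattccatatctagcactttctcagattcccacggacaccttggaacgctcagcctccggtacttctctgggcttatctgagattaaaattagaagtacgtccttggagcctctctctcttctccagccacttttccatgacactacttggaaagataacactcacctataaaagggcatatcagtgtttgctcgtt
In Ctrb1 the CAGCTG began 205 bases and the TTTCCC 195 bases before the start. In Cel there were 4 CACCTG matches, beginning 170, 154, 134 and 65 bases before the start, and a TTTCCC at 86. CACCTG was found in 3 of the 8 promoters (17.2% of all 32851), CAGCTG in 2 (13%) and TTTCCC in 3 (21.9%). An E-box form together with TTTCCC was found in 2 of 8, against 5.91% of all promoters. These are letter matches and not measured binding sites, and Clps and Dmbt1 were not searched.

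The sorted cells carried their own markers. The summed score of 8 β cell markers was 501783 to 10888983 in β cells and no more than 45997 in the other libraries, and the matching lists put ECs and MΦs apart from the rest in the same way. Among the No Dox β cell libraries the β cell marker sum was 8664281, 5535990, 1655791 and 628170 in replicates 1 to 4. The sum of 8 stellate cell and pericyte markers was 888, 1030, 138148 and 494851 in the same libraries, so replicates 3 and 4 stood apart in both lists. The sum of 7 markers of other endocrine cells was 53155, 54347, 251804 and 126550, again higher in replicates 3 and 4. The sum of 8 duct markers was 16334 to 23269 in these 4 libraries. The scores of all genes in a library summed to 23465985 to 53441769, and to 23462849 to 39044634 without the 45 acinar genes.

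Before Dox, the 10 acinar transcripts were present in every library of all 3 cell types, at levels that differed widely between libraries of the same cell type. Together they held 1.67%, 0.0833%, 22% and 19.5% of the summed score in No Dox β cell replicates 1 to 4. In No Dox ECs they held 0.28%, 4.43%, 0.242% and 0.18%, and in No Dox MΦs 0.274%, 19.8%, 0.0678% and 4.75%. The highest library exceeded the lowest by 219-fold to 557-fold in β cells, depending on the gene, by 24.5-fold to 51.1-fold in ECs and by 74-fold to 1013-fold in MΦs. Counting all 45 acinar genes of the table, the highest shares were 41.45% in β cell replicate 3 and 36.6% in MΦ replicate 2.

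**Figure D1:**
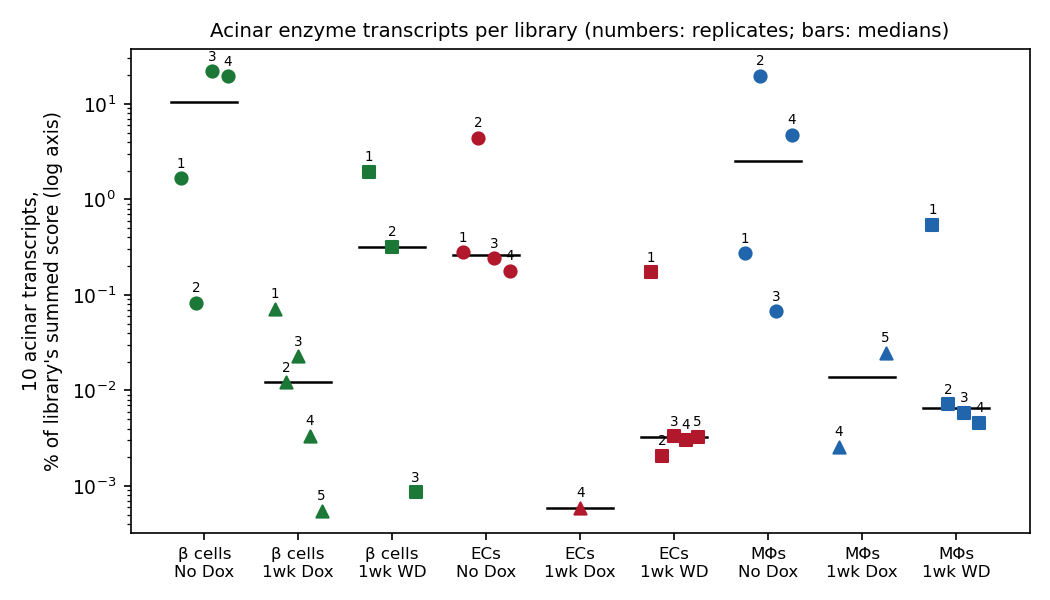
Share of each library's summed score held by the 10 acinar transcripts (log axis), by cell type and time point, with 1 point per library, replicate numbers above the points and a bar at each group's median. No Dox libraries reach 22%, the 1wk Dox libraries lie between 0.00055% and 0.0719%, and replicate 1 is the highest 1wk WD library in each cell type.

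The libraries with the highest scores were shared by the genes. All 10 transcripts were highest in replicate 3 and lowest in replicate 2 of the No Dox β cells. In No Dox ECs all 10 were highest in replicate 2, and in No Dox MΦs all 10 were highest in replicate 2 and lowest in replicate 3. The library numbered 2 was therefore the lowest in β cells and the highest in ECs and MΦs. At 1wk WD, replicate 1 held the highest score of all 10 transcripts in each of the 3 cell types.

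After 1 week of Dox the same transcripts held 0.0719%, 0.0122%, 0.023%, 0.00336% and 0.00055% of the summed score in β cell replicates 1 to 5. The single 1wk Dox EC library had 0.000592%, and the 2 MΦ libraries had 0.00259% and 0.0249%. At 1wk WD the shares were 1.95%, 0.322% and 0.00086% in β cells. They were 0.172%, 0.00207%, 0.00332%, 0.00304% and 0.00328% in ECs, and 0.542%, 0.00722%, 0.00585% and 0.0046% in MΦs. At 1wk WD, 1 of 3 β cell, 4 of 5 EC and 3 of 4 MΦ libraries lay within the range of the 1wk Dox libraries of all cell types, and the rest lay above it.

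The proteases are described first. Ctrb1 (ENSMUSG00000031957, mm9 chr8:114210410-114214910, minus strand) encodes chymotrypsinogen B1, a zymogen that trypsin activates. In β cells its score was 365089, 13864, 6003681 and 5227660 at No Dox, 13281, 2094, 3035, 467 and 114 at 1wk Dox, then 309101, 46681 and 202 at 1wk WD. All 5 Dox libraries lay below all 4 No Dox libraries, narrowly so for Dox replicate 1 against No Dox replicate 2, and the 1wk WD libraries overlapped both groups. In ECs its score was 57877, 925212, 46657 and 37771 at No Dox, 178 in the Dox library, then 30074, 537, 868, 713 and 653 at 1wk WD. In MΦs its score was 54747, 6456823, 6371 and 1047854 at No Dox, 575 and 1664 at 1wk Dox, then 105832, 1452, 1170 and 942 at 1wk WD. The No Dox and 1wk WD groups did not overlap in ECs, and in MΦs 1wk WD replicate 1 lay above 2 of the 4 No Dox libraries.

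Cpa1 (ENSMUSG00000054446, chr6:30589218-30595363, plus strand) encodes procarboxypeptidase A1, which removes C-terminal residues from peptides. Its β cell scores were 66331, 4088, 1202075 and 905275 at No Dox, 1710, 357, 1203, 163 and 17 at 1wk Dox, then 59466, 13457 and 18 at 1wk WD. Every Dox library was below every No Dox library, while 1wk WD replicate 3 was at the level of the lowest Dox library. In the other cell types Cpa1 ranged from 5903 to 177586 in No Dox ECs and from 4122 to 1179137 in No Dox MΦs, and it was 12 in the Dox EC library and 73 and 483 in the Dox MΦ libraries.

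Try4 (ENSMUSG00000054106, chr6:41252268-41255531, plus strand) is a trypsinogen, and Klk1 (ENSMUSG00000063903, chr7:51480807-51484987, plus strand) is tissue kallikrein, a serine protease that releases kinins. Try4 scored 606 to 205474 in No Dox β cells and 4 to 266 at 1wk Dox, and Klk1 scored 385 to 115969 and 1 to 329. Neither gene's No Dox and 1wk Dox groups overlapped in β cells. In the Dox EC library Try4 was at 1 and Klk1 at 2. Both genes share sequence with close relatives: 64.2% of the 50-base words of Try4 transcripts also occurred in other genes, Try5 holding the most, and 31.1% of those of Klk1 did, with Klk1b5 first. How the authors assigned reads that match several genes is not given in the sources used here, so these scores may mix family members.

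The lipid enzymes were highest in the same library of each group as Ctrb1. Pnlip (ENSMUSG00000046008, chr19:58744855-58756276, plus strand) is pancreatic triglyceride lipase. Its β cell scores were 61068, 3200, 1047876 and 578213 at No Dox, 886, 227, 467, 7 and 4 at 1wk Dox, then 36835, 7751 and 20 at 1wk WD. Its EC scores were 4768, 93169, 5369 and 2698 at No Dox, 1 at 1wk Dox, then 4639, 20, 30, 45 and 50 at 1wk WD. Its MΦ scores were 4933, 660876, 4300 and 146625 at No Dox, 42 and 236 at 1wk Dox, then 13204, 107, 98 and 47 at 1wk WD. In ECs and MΦs only replicate 1 of the 1wk WD libraries reached into the No Dox range, and the other 7 libraries were far below it.

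Clps (ENSMUSG00000024225, chr17:28695155-28697711, minus strand) encodes colipase, the cofactor that anchors pancreatic lipase to fat droplets covered by bile salts. Cel (ENSMUSG00000026818, chr2:28411315-28418923, minus strand) is carboxyl ester lipase, which bile salts stimulate. Clps ranged from 951 to 481702 in No Dox β cells and from 2 to 625 after Dox, and Cel from 2843 to 1163728 and from 13 to 1296. In the Dox EC library Clps was at 1 and Cel at 8. Neither gene's No Dox and 1wk Dox groups overlapped in β cells or in MΦs.

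Amy2a5 (ENSMUSG00000074268, chr3:113052094-113061755, minus strand) encodes a pancreatic α-amylase, which cuts starch. Its β cell scores were 24360, 2032, 444646 and 236608 at No Dox, 698, 100, 196, 9 and 1 at 1wk Dox, then 17094, 4008 and 18 at 1wk WD. The groups No Dox and 1wk Dox were again apart. All of its 50-base words also occurred in other amylase genes (Amy2a3, Amy2a4, Amy2a2, Amy2a1 and Amy1), so its score cannot be assigned to a single copy.

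The last pair are proteins of granules and mucosa. Gp2 (ENSMUSG00000030954, chr7:126586057-126602786, minus strand) is the main membrane glycoprotein of zymogen granules. Its β cell scores were 4639, 152, 84642 and 53221 at No Dox, 46, 5, 331, 1 and 1 at 1wk Dox, then 3684, 804 and 1 at 1wk WD. It was the 1 transcript of the 10 whose No Dox and 1wk Dox groups overlapped in β cells, because Dox replicate 3 (331) lay above No Dox replicate 2 (152). Dmbt1 (ENSMUSG00000047517, chr7:138175590-138265140, plus strand) encodes a large secreted scavenger receptor glycoprotein of mucosal surfaces. Its MΦ scores were 2455, 271685, 517 and 39699 at No Dox, 83 and 5361 at 1wk Dox, then 4222, 116, 42 and 158 at 1wk WD. The 5361 in Dox replicate 5 lay above 2 of the 4 No Dox libraries, while the other 9 transcripts lay below all of their No Dox scores in that library. In β cells Dmbt1 was 735 to 239041 at No Dox and 1 to 371 at 1wk Dox, with no overlap.

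**Figure D2:**
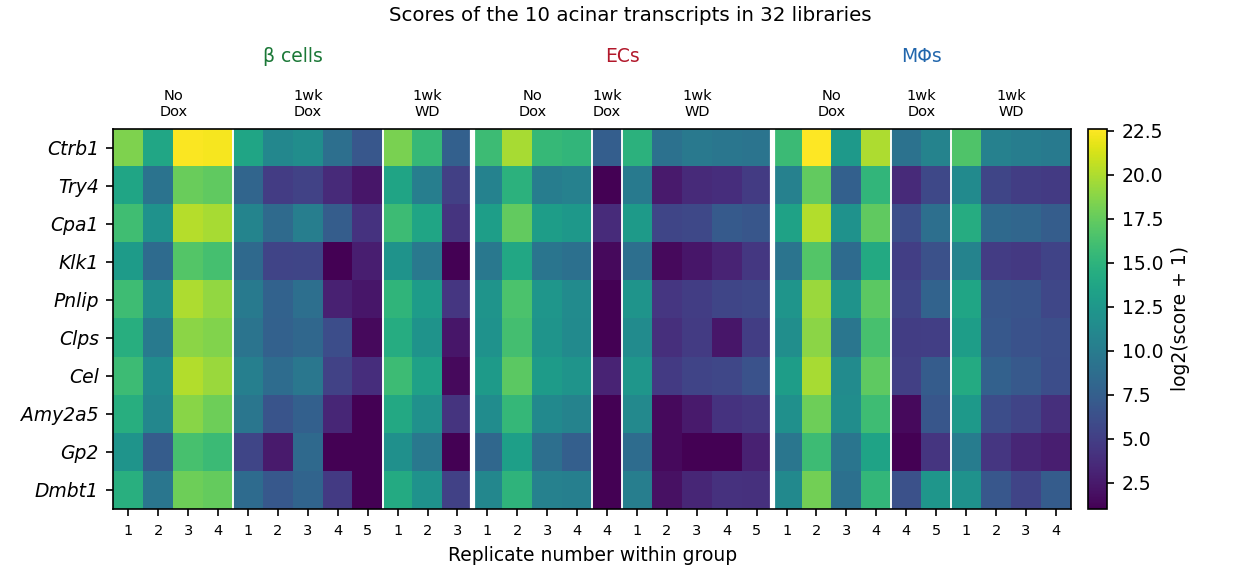
Expression of the 10 acinar transcripts (rows) in 32 libraries (columns, grouped by cell type and time point) as log2(score + 1), with replicate numbers below. No Dox β cell replicates 3 and 4 and MΦ replicate 2 are bright for all 10 genes, and the Dox EC library has 6 genes at the lowest score.

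The size of the differences was summarised as the difference between group means of log2(score + 1), taken from a limma model of each cell type. Because 1 is added, these values understate the change of genes near the lowest score. In β cells the 10 transcripts were lower at 1wk Dox, their median difference from No Dox being -9.12 on the log2 scale, from -8.80 (Cpa1, standard error 2.39) to -10.31 (Pnlip, standard error 2.45). The median of all genes tested was 0.03. The groups did not overlap for 9 of 10, where 1.47% of the 16346 genes tested were lower without overlap. Since these values helped to choose the genes, nothing is read from that count. Without No Dox replicates 3 and 4, a choice made after seeing the data, the median was -6.12.

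In MΦs the median difference between 1wk Dox and No Dox was -8.37, from -4.01 (Dmbt1, standard error 2.33) to -10.14 (Amy2a5, standard error 2.26), and 9 of 10 did not overlap, against 14.7% of 15014 genes. With 4 against 2 libraries, non-overlap is frequent among all genes. The MΦ median was -9.67 without No Dox replicate 3 and -6.94 without No Dox replicate 2. The single Dox EC library was lower than the mean of the No Dox ECs for all 10, by a median of -10.56, and below each No Dox library for all 10. Of the 14047 genes compared, 5.27% were lower by a fold of 2 or more and 26.3% lay below all No Dox libraries. In that library 6 of the 10 were at the lowest score, and with a single library there is no replicate check. The columns of the 1wk Dox EC and MΦ libraries and of 1wk WD β cell replicate 3 were numbered in a block apart from all others. What those numbers stand for is not stated. Any difference that they mark cannot be told apart from Dox in ECs and MΦs.

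At 1wk WD the median difference from No Dox was -5.59 in β cells, with all 10 overlapping, where 3.10% of genes were lower without overlap. The median was -6.61 in ECs, with 4 of 10 (Ctrb1, Try4, Klk1 and Dmbt1) not overlapping, against 4.91% of 14167 genes. It was -6.13 in MΦs, with all 10 overlapping, against 4.27% of genes. These comparisons share their No Dox libraries with those of the Dox libraries. Leaving out 1wk WD replicate 1 moved the median to -7.72 in MΦs, -7.93 in ECs and -7.85 in β cells. The β cell median was -2.32 without 1wk WD replicate 3 and -2.66 without No Dox replicates 3 and 4 together. Without No Dox replicate 2 the median was -5.49 in ECs and -4.61 in MΦs.

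Against 1wk Dox, the 1wk WD scores were higher for all 10 transcripts in β cells, by a median of 3.60, with the groups overlapping for every gene against 2.97% of genes higher without overlap. In MΦs the median was 1.98, 9 of 10 were higher, and Clps alone did not overlap, against 13.4% of genes. Dmbt1 was lower there by 1.48 on the log2 scale. Without 1wk WD replicate 1 these medians were 1.40 in β cells and 0.39 in MΦs, and without the third β cell library of 1wk WD the β cell median was 7.07.

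**Figure D3:**
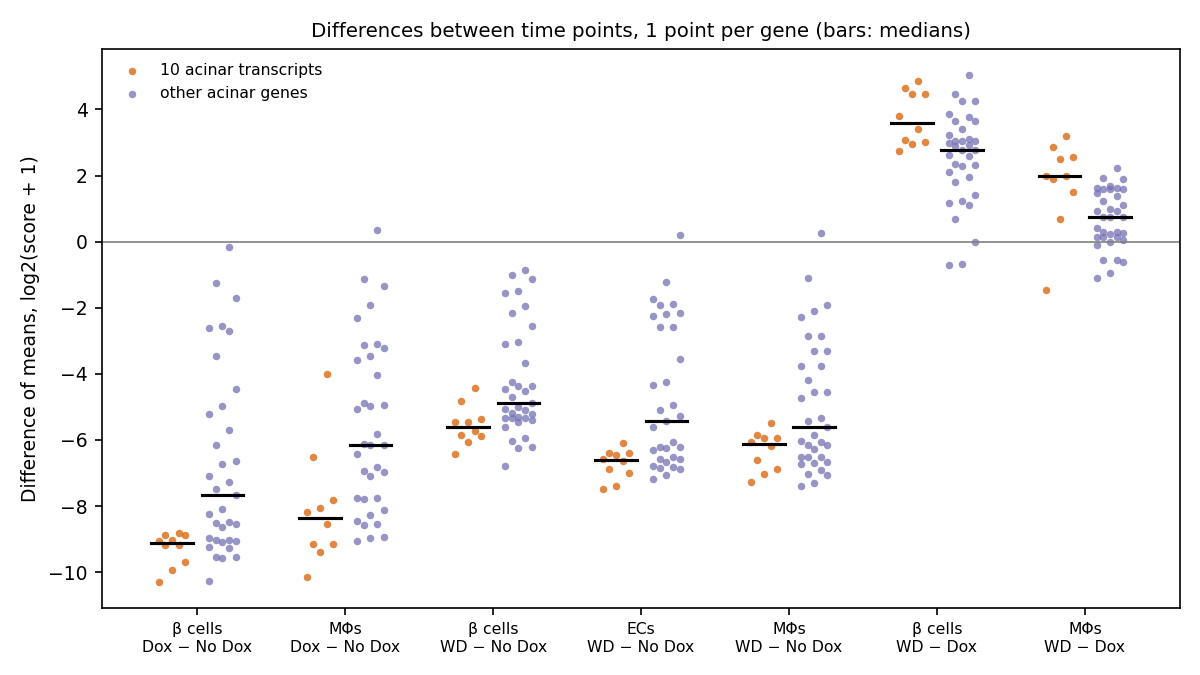
Differences between time points in group means of log2(score + 1), with 1 point per gene for the 10 acinar transcripts and for up to 35 other acinar genes, and bars at the medians. In β cells at 1wk Dox the 10 transcripts lie between -10.31 and -8.80 and the other acinar genes reach from -10.28 to -0.18.

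The other acinar genes of the pathway were taken from a list of 38, of which 35 were in the table, and were tested with limma over all genes. The list was chosen with earlier results of these data known, and many of its genes moved together between libraries. Counts of calls are therefore no independent support, and the shares of all genes beside them are given for scale. A call needed at least a fold of 2 together with an adjusted p (Benjamini-Hochberg) below 0.05. In ECs, 19 of 33 tested were called lower at 1wk WD than at No Dox, where 0.487% of all genes were called lower. They included 11 of 14 proteases and their inhibitor, 3 of 3 lipid enzymes, 4 of 5 granule proteins, 1 of 2 in the amylase and ribonuclease group, 0 of 3 transcription factors and 0 of 6 receptor, channel and endoplasmic reticulum proteins. Cpb1, procarboxypeptidase B1, fell by 7.17 on the log2 scale (limma adjusted p = 0.0206), and the elastase Cela1 fell by 7.07 (limma adjusted p = 0.0223). Zg16, a granule lectin, fell by 6.89, the lipase relative Pnliprp1 fell by 6.84 and syncollin, Sycn, fell by 6.81.

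That EC count rested on the filter, on the trend of the spread and on single libraries. It was 0 with no filter on low scores and 0 with no trend of the spread on mean level. It was also 0 without No Dox replicate 1, 1 without No Dox replicate 2 or replicate 3 or without 1wk WD replicate 3, and 23 without 1wk WD replicate 1. The groups did not overlap, with 1wk WD lower, for 2 of the 33 genes, Try10 and Tmed6, near the 4.91% of all genes for which this held.

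In MΦs at 1wk Dox, 2 of 35 other acinar genes, including Cpb1 (-8.98, limma adjusted p = 0.0441), were called lower, against 0.653% of all genes. The count ran from 0 to 21 when single libraries were left out, being 21 without No Dox replicate 3 and 0 without any of the other 5. Leaving out either 1wk Dox library left 1 in that group, which was then assumed to vary like the other groups. In β cells 0 of 35 were called at 1wk Dox by limma, with 32 at an unadjusted p under 0.05 and a fold of 2 (4.04% of all genes), where 0.0122% of all genes were called either way. Without No Dox replicate 2 the count was 6. The largest differences there were Cela2a at -10.28 (limma adjusted p = 0.33), Pla2g1b, a secreted phospholipase A2, at -9.58 (limma adjusted p = 0.282), and Cpb1 at -9.56 (limma adjusted p = 0.455). At 1wk WD limma called 0 of 35 in β cells and 0 of 35 in MΦs, with 13 and 32 at an unadjusted p under 0.05 and a fold of 2 (4.45% and 4.97% of all genes), against 0% and 0.206% of all genes called lower. Without 1wk WD replicate 1 the MΦ count was 13, and without No Dox replicate 3 it was 4. The largest differences in MΦs were Zg16 at -7.40 (limma adjusted p = 0.0932), Pla2g1b at -7.31 (limma adjusted p = 0.0828) and Cela3b, an elastase, at -7.06 (limma adjusted p = 0.0942). In β cells they were Cpb1 at -6.79, Sycn at -6.26 and the trypsinogen Prss2 at -6.21 (limma adjusted p = 0.61 for each). Between 1wk Dox and 1wk WD, limma called 0 of 35 in β cells and 0 of 35 in MΦs, where 0% and 0.0866% of all genes were called either way, with 0 at an unadjusted p under 0.05 and a fold of 2 (2.88% and 1.82% of all genes). The largest differences were Cela2a (5.05), 2210010C04Rik (4.48) and Ctrl (4.26) in β cells, and those in MΦs included Cpb1 (2.24) and Cela2a (1.89).

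Whether the response of the other acinar genes differed between cell types was tested as a difference of differences. limma called 0 of 35 in each of the 4 comparisons, with 0 at an unadjusted p under 0.05 as well, and the lowest adjusted p was 0.466. Of all 16951 genes, 0.265% were called between MΦs and ECs, 0.0413% between MΦs and β cells and 0.383% between ECs and β cells for 1wk WD against No Dox, and 0.0354% between MΦs and β cells for 1wk Dox against No Dox. Given the spread between libraries, these tests do not show that the responses were alike.

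Between cell types, the No Dox scores of the 10 transcripts are a description without a test, because those scores may have entered the choice of the genes. Their median was higher in β cells than in ECs by 3.05 and than in MΦs by 1.40, and lower in ECs than in MΦs by 1.69 on the log2 scale. The standard errors of single genes were 1.85 to 2.32, and the libraries overlapped for all 10 in each pair of cell types. The share of all genes that overlapped is not given here, so nothing is read from that count. Without No Dox β cell replicates 3 and 4 the medians were 0.10 against ECs and -1.58 against MΦs, so the sign turned against MΦs. Single libraries moved these medians too. For β cells against ECs the median was 4.77 without β cell replicate 2 and 2.00 without β cell replicate 3. For β cells against MΦs it was 3.13 without β cell replicate 2 and 2.89 without MΦ replicate 2, but 0.29, 0.48, 0.51 and 0.02 without β cell replicate 3, β cell replicate 4, MΦ replicate 1 and MΦ replicate 3. For ECs against MΦs it was -0.16 without MΦ replicate 2, -1.05 without MΦ replicate 4, -2.82 without EC replicate 2 and -2.95 without MΦ replicate 3.

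The 1wk WD scores of the 10 transcripts are given between cell types in the same way, without a test, because the choice of the genes had those libraries in view. Their median was higher in β cells than in ECs by 4.20 and than in MΦs by 2.16, and was -2.05 for ECs against MΦs on the log2 scale, with standard errors of single genes from 1.88 to 2.97. The libraries overlapped for all 10 in each pair of cell types, and nothing is read from this either, since the share of all genes is not given. The largest difference was that of Dmbt1, at 5.75 between β cells and ECs. Dmbt1 scored 18926, 4109 and 36 in the β cells and 1199, 3, 9, 16 and 15 in the ECs, so β cell replicate 3 was below EC replicate 1. Single libraries moved these medians. Without β cell replicate 3 they were 7.60 against ECs and 5.27 against MΦs, and without β cell replicate 1 they were 1.92 and -0.04. Without MΦ replicate 1 the median was 3.78 for β cells against MΦs and -0.36 for ECs against MΦs, and without EC replicate 1 the latter was -3.37.

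To ask which genes moved with the 10 transcripts apart from the groups, each gene's log2(score + 1) was taken as its deviation from the mean of its cell type and time point in the 31 libraries with a replicate. Between the 10 transcripts, the 45 pairwise Pearson correlations of these deviations ran from 0.922 to 0.99, with a median of 0.96. Each transcript's correlation with the mean over the 10, which contains it, was highest for Cpa1 (0.993) and lowest for Gp2 (0.968). The points are libraries that share a normalisation and whose depth is unknown, so these values are descriptions.

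Among 16958 genes compared, the 10 outside the list that were most like its mean were Amy2a3 (0.993), Cpb1 (0.992), Amy2a2 (0.992), Cela3b (0.991), Cela1 (0.988), Prss2 (0.988), Amy2a4 (0.987), Rnase1 (0.987), 2210010C04Rik (0.986) and Sycn (0.986). They are amylases, a carboxypeptidase, elastases, trypsinogens, a ribonuclease and a granule protein, and 7 of the 10 belong to the other acinar genes. The amylases among them share sequence with Amy2a5. The median correlation over all genes was 0.04, and of the 23 genes at 0.9 or more, 19 were on the list of other acinar genes. That list was chosen with earlier results of these data known, so this overlap is a description. By Spearman correlation 8 of the same 10 genes were again among the top 10.

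Some acinar genes followed the 10 transcripts less closely. The lowest correlation was that of Bhlha15 (0.393), a transcription factor of secretory cells also known as Mist1, and Nr5a2 (0.658) and Rbpjl (0.689), which drive acinar enzyme genes, were also low, while Ptf1a reached 0.761. Tmed6 (0.58), Aqp8 (0.597) and Erp27 (0.65), which are not transcription factors, were lower than Nr5a2. All of these lay above the median of 0.04 over all genes. Nr5a2 scored 5007 to 6574 in No Dox ECs, 8933 in the Dox EC library and 5687 to 8767 at 1wk WD, above its score in each β cell and MΦ library. Its level in ECs at No Dox was higher than in MΦs by 4.93 (limma adjusted p = 0.00829). Rbpjl scored 1010 to 5904 in No Dox MΦs and 1039 to 4353 at 1wk WD, when it was lower in ECs than in MΦs by 8.92 on the log2 scale (limma adjusted p = 2.67e-06). Bhlha15 scored 3018 to 7611 in No Dox β cells, 747 to 1862 in those after Dox and 847, 1452 and 6880 at 1wk WD. Bhlha15 was not called between any time points in β cells. After withdrawal it was higher in β cells than in ECs by 5.30 (limma adjusted p = 0.000253).

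The calls among other acinar genes between cell types at No Dox were 2 of 35 for β cells against ECs (Nr5a2 at -3.73 and Bhlha15 at 4.40), 1 for β cells against MΦs (Bhlha15 at 3.55) and 3 for ECs against MΦs (Nr5a2 higher, Rbpjl and Erp27 lower), where 37.7%, 43.2% and 33.5% of all 16380 genes were called. Single libraries decided most of these. For β cells against ECs the count called higher was 11 without β cell replicate 2, 4 without EC replicate 2 and 0 without β cell replicates 3 and 4 together, and the count called lower was 0 without β cell replicate 1 or 2 or without any EC library. For β cells against MΦs the count called higher was 0 without β cell replicate 1, 2 or 3, without MΦ replicate 1 or 3, or without β cell replicates 3 and 4 together, when 2 were called lower. For ECs against MΦs the count called lower was 0 without EC replicate 1, 3 or 4 or without any MΦ library, while the count called higher was 1 throughout.

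At 1wk WD, 6 of 32 were called higher and 1 lower in β cells than in ECs, among them Serpini2 (5.64), a serpin, Rbpjl (5.61) and Tmed6 (4.77) besides Bhlha15 and, lower, Nr5a2 (-4.78), where 39.9% of all genes were called. Against MΦs, 4 were called higher in β cells, including Bhlha15 (5.39), Tmed6 (3.98), Nr5a2 (2.63) and Amy1 (2.50), and 2 lower, including Rbpjl (-3.31), where 46.2% of all genes were called either way. Between ECs and MΦs, Nr5a2 was called higher in ECs (7.41), and Rbpjl, Aqp12 (-4.63) and Erp27 (-3.56) were called lower, where 40.3% of all genes were called either way. These counts too rested on single libraries: without β cell replicate 3, 33 were called higher in β cells than in ECs and 21 than in MΦs, with 0 lower than in MΦs, of 34 that then passed the filter on low scores. Without EC replicate 1, 12 were called higher in β cells than in ECs, without MΦ replicate 1, 7 were called higher than in MΦs, and without MΦ replicate 2, 1 was called lower than in MΦs.

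**Figure D4:**
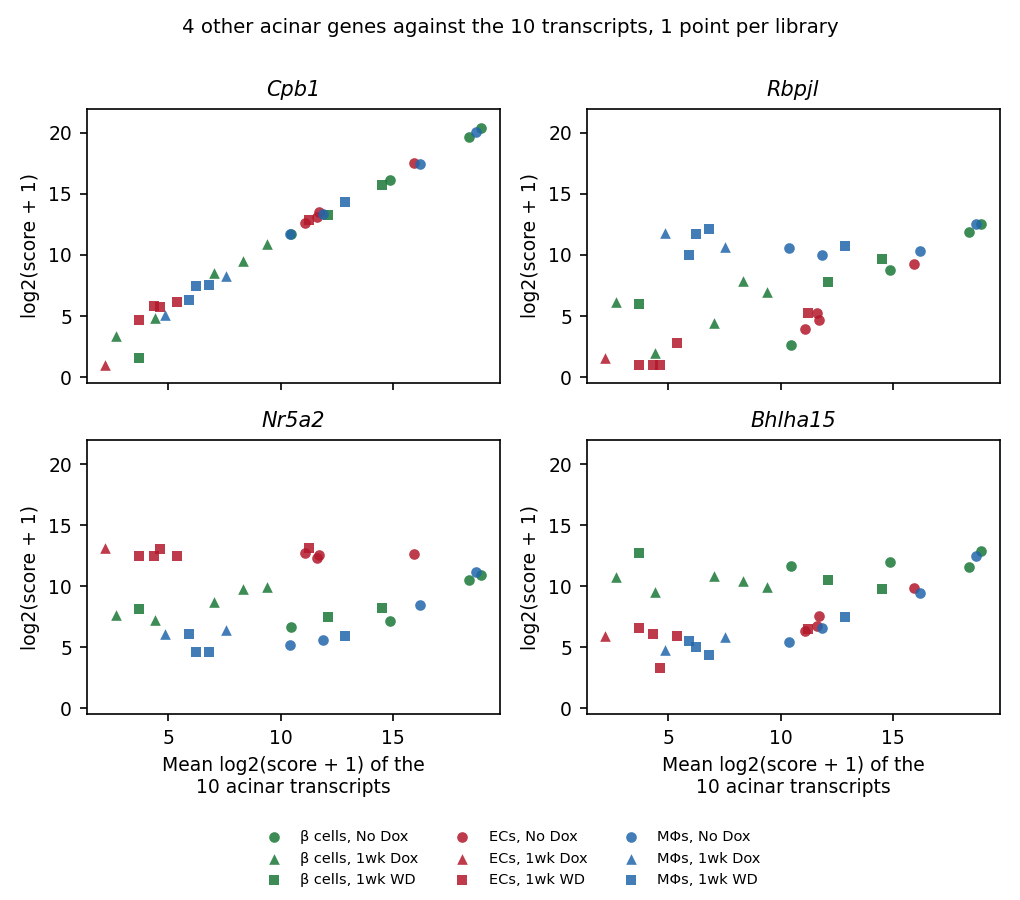
log2(score + 1) of 4 other acinar genes (y axes) against the mean log2(score + 1) of the 10 acinar transcripts (x axes), 1 point per library, coloured by cell type and shaped by time point. Cpb1 follows the 10 transcripts in all libraries, whereas Nr5a2 scores 5007 or more in every EC library, above all β cell and MΦ libraries. Rbpjl scores 1010 or more in every MΦ library but reaches 6107 in No Dox β cell replicate 3. Bhlha15 scores 747 or more in every β cell library but reaches 902 in No Dox EC replicate 2 and 5559 in No Dox MΦ replicate 2.

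The make-up of the 10 transcripts was also compared, as each gene's share of their summed score. In the 17 libraries where this sum was at least 10000, Ctrb1 held 27.4% to 68.1% (median 59.2%), Cpa1 8.77% to 17.7% (median 11%), Cel 6.64% to 12.2% (median 9.39%) and Clps 3.09% to 5.89% (median 4.55%). Relative to their medians, the ranges were wider for Amy2a5 (2.24% to 13.7%), Pnlip (4.54% to 18.5%) and Gp2 (0.236% to 2.85%). The 17 libraries included 12 of No Dox, 1 of 1wk Dox (β cells) and 4 of 1wk WD, and their sums differed far more than the shares did. The lowest Ctrb1 share was that of No Dox MΦ replicate 3, in which Amy2a5 (13.7%), Pnlip (18.5%), Cpa1, Cel and Gp2 (2.85%) had their highest shares. In the 15 libraries with lower sums the shares spread further, with Ctrb1 at 20.3% to 86.4% and Dmbt1 at 0.458% to 65.4%, the latter in 1wk Dox MΦ replicate 5. Shares do not rank the genes by abundance, because the score is not stated to be per length.

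**Figure D5:**
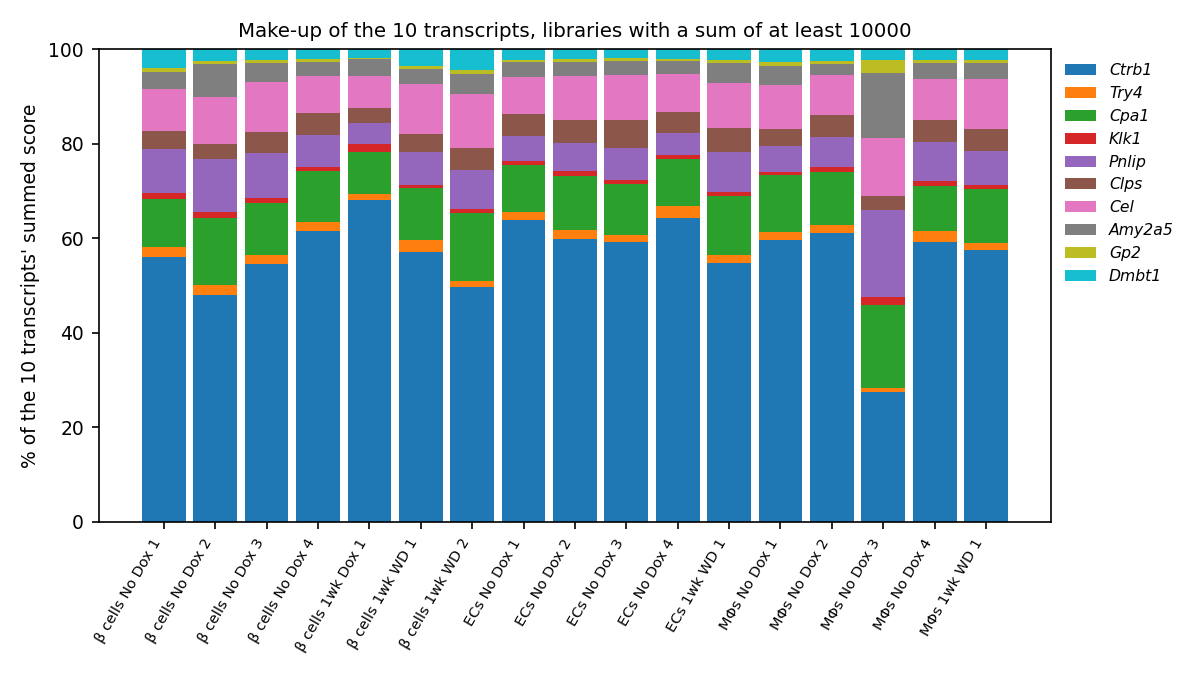
Share of each of the 10 transcripts in their summed score (y axis, %), in the 17 libraries where that sum was at least 10000. Of 1wk Dox only β cell replicate 1 is shown. Ctrb1 holds 27.4% to 68.1%, with a median of 59.2%, and is lowest in No Dox MΦ replicate 3.

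Markers of other cell types were read beside these results. Across the No Dox β cell libraries, the highest acinar shares (replicates 3 and 4) came with the highest stellate cell and pericyte sums and the lowest β cell marker sums. Other lists were also higher in replicates 3 and 4 than in 1 and 2. They included other endocrine (251804 and 126550 against 53155 and 54347), endothelial (3467 and 5828 against 1647 and 1217) and B and T cell (1033 and 315 against 93 and 80) sums. The 1wk Dox β cells, however, had stellate cell and pericyte sums of 102176 to 488605 with acinar shares of at most 0.0719%. The duct marker sum was 16334 to 23269 in No Dox β cells, 9533 to 19925 in those after Dox and 17459 to 25406 after withdrawal. In No Dox ECs it was 1416 to 2351 and in No Dox MΦs 3024 to 8459. No Dox MΦ replicate 2, with the acinar share of 19.8%, also had the highest β cell (45997 against 1959 to 6696), other endocrine (35440 against 3763 to 10095) and duct (8459 against 3024 to 3541) sums of its group. In 1wk Dox β cells the endothelial sum was 46471, 15533, 21456, 5142 and 1012 in replicates 1 to 5, the same order as the acinar shares, whereas at 1wk WD it was 3382, 5299 and 15027, the reverse order. The 1wk WD β cells had stellate cell and pericyte sums of 336033, 302306 and 23338, in the order of their acinar shares, and β cell marker sums of 623088, 1898635 and 10888983, in the reverse order, as in the No Dox β cells with the highest shares. Their other endocrine sums were 30412, 57069 and 92901, also in the reverse order, unlike at No Dox. The macrophage sum was at most 6536 in any β cell or EC library. The part of these cells in the acinar levels was not tested.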

How the data were processed

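RNA of sorted islet cells was amplified with a NuGEN Ovation kit and sequenced as 50-base reads. The authors aligned reads to mm9 with TopHat2 2.0, per the submitters' processing notes, and deposited 1 table of 22850 genes whose values are scores: expression normalised by the trimmed mean of M values in Avadis NGS and rounded, with 1 as the lowest. No counts were used, so depth per library is unknown, and 6 columns of values that match no sample were not used. RNA integrity was stated with different minimums in the labels and in the methods.

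The 10 transcripts, the 38 other acinar genes and the marker lists were chosen with earlier results of these data known. Scores were turned into log2(score + 1), genes were kept if their mean score reached 20 in any fitted group, and limma 3.58.1 (R 4.3.3) with a trend of the spread on mean level was fitted over all genes. One model each was fitted for the time points of a cell type (the single EC 1wk Dox library was left out and is given as a value), for the cell types at No Dox and at 1wk WD, and for response differences over 31 libraries. Fold changes of 2 or more with a Benjamini-Hochberg adjusted p under 0.05 were called, and the procedure was tested on simulated data. The named genes are the 10 transcripts, up to 5 other acinar genes with the largest difference among those called in a comparison (or the 3 largest where none was called), and the 10 genes most like the mean of the transcripts. One gene that this rule names is not reported here. Nr5a2, Rbpjl, Bhlha15, Ptf1a, Try10, Tmed6, Aqp8 and Erp27 are also named where counts turn on them or for a low correlation, chosen after their values were seen. Shared 50-base words were counted between GENCODE M1 coding transcripts, and coordinates are mm9. Alternatives were pseudocounts of 0.1 and 20, no filter or a minimum of 200, another scaling, no trend, 2-group fits, the replicate block and leaving out each library.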

Additional observations from a re-analysis of the deposited data

Results flagged for a closer look

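In groups of 4 to 10 libraries, a library was singled out where its gap to the nearest other exceeded Dixon's 95% limit. Chance gives about 1 in 20 groups, and 27 of the 72 groups tested were picked out, in 3 libraries. Because the 10 transcripts move together, the 27 are not independent.

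No Dox EC replicate 2 stood above the other 3 No Dox EC libraries. Its log2(score + 1) was 19.82 for Ctrb1, 14.86 for Try4, 17.44 for Cpa1, 13.93 for Klk1, 16.18 for Clps, 17.15 for Cel, 15.41 for Amy2a5 and 15.03 for Dmbt1. The mean over the 10 transcripts was 15.95 there, and they held 4.43% of the summed score.

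1wk WD EC replicate 1 stood above the other 4 libraries of its group. Its log2(score + 1) was 14.88 for Ctrb1, 12.76 for Cpa1, 12.18 for Pnlip, 11.45 for Clps, 12.34 for Cel, 8.66 for Gp2 and 10.23 for Dmbt1. The mean over the 10 was 11.24 and the share 0.172%.

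1wk WD MΦ replicate 1 stood above the other 3 libraries of its group. Its log2(score + 1) was 16.69 for Ctrb1, 11.36 for Try4, 14.36 for Cpa1, 10.64 for Klk1, 13.69 for Pnlip and 13.03 for Clps. The mean over the 10 was 12.88 and the share 0.542%.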

How the results depend on the processing

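The sign of the median difference of the 10 transcripts was kept under 201 of 203 alternatives, and that of the other acinar genes under 200 of 203. For the 10 transcripts both exceptions were β cells against MΦs: -1.58 at No Dox without β cell replicates 3 and 4, and -0.04 at 1wk WD without β cell replicate 1. Counts of calls were less stable. The 19 other acinar genes called lower in ECs at 1wk WD became 0 with no filter and 0 with no trend, and 0 to 23 when single libraries were left out. The 2 called lower in MΦs at 1wk Dox became 0 with a pseudocount of 20, no filter, no trend, only the 2 groups or the replicate block, 8 with a minimum of 200, and 0 to 21 without single libraries. Leaving out single libraries gave 0 to 6 called lower in β cells at 1wk Dox and 0 to 13 in MΦs at 1wk WD.

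Between cell types, the 6 other acinar genes called higher in β cells than in ECs at 1wk WD became 14 with the replicate block and the 3 lower in ECs than in MΦs became 5 with only the 2 groups, while at No Dox the 2 lower in ECs than in MΦs became 0 with no filter or the replicate block. Calls of the 10 transcripts between cell types are not given under any setting, since their scores entered their choice. Same-numbered libraries were not taken as pairs, since no pair of groups with 3 or more shared numbers had all correlations of deviations over 0.1. They ran from -0.40 to 0.35 between No Dox and 1wk Dox β cells (1 of 4 matched its own number best), but 3 of 4 were over 0.1 and matched best between ECs and MΦs at 1wk WD (-0.07 to 0.17), and 2 of 4 at No Dox (-0.13 to 0.41). Depth is unknown, so differences near the lowest score cannot be sized.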

Other observations

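Leaving out No Dox β cell replicates 3 and 4 together, a choice made after seeing the data, moved the number of all genes called between 1wk Dox and No Dox β cells from 2 to 1199, and between 1wk WD and No Dox from 0 to 1424. Of the other acinar genes, 0 were called by limma in either comparison with or without them.

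Amy1, which codes for the amylase also made by salivary gland and liver, shares sequence with Amy2a5 but had a higher lowest score: it scored 105 or more in every library, including 268 in the 1wk Dox EC library, where Amy2a5 was at 1.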
